A study of Rattus norvegicus with 31 samples.

Results

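The genes described here are 8 genes grouped as macrophage genes, Cd68, Itgam, Csf1r, Siglec10, Cd163, Gpnmb, Spp1 and Ccl2. Whether macrophages were the source of their RNA in these tissues was not tested. The 8 genes were chosen by name, with earlier results of these data known, and every probe set annotated to 1 of them alone was taken. That gave 8 probe sets, 1 per gene, of the 31042 probe sets on the Affymetrix rat genome array, or 8 of the 14217 genes that a probe set with a single symbol names. Male Wistar rats, 3 weeks old on entry, first had chow for 1 week and were then given 1 of 3 diets that differed in the ratio of carbohydrate to fat. Carbohydrate and fat supplied 65 and 15% of the energy in the low fat (L) diet, 60 and 20% in the moderate fat (M) diet and 35 and 45% in the high fat (H) diet. After 1 week of free access to these diets, the L rats ate freely for 9 weeks, the others were given the same energy as the L rats, and all were fasted for 17 h before sampling. White (WAT) and brown (BAT) adipose tissue were measured in 5 L rats (L1 to L5) and 4 H rats (H12, H13, H15 and H16), and the liver in these 9 rats and in 4 M rats (M6, M8, M9 and M10). Each array held RNA of 1 rat and 1 tissue, so that n counts rats throughout.

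Macrophages live in every tissue, where they take up dying cells, debris and lipid and answer to infection and injury. In adipose tissue they gather around large or dying adipocytes in obesity, and the lipid-laden cells there are known for lysosomal and osteopontin-related genes. In the liver the resident macrophages are the Kupffer cells. The array measures RNA from the whole tissue, so that fewer macrophages and less RNA per macrophage cannot be told apart.

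Of the 8 genes, 7 had a promoter window in the RefSeq table of the rat genome build GRCr8, running from 250 bases before to 50 bases after the start of the gene. Ccl2 had none there. A total of 4 windows are printed, for Siglec10, the gene with the largest diet difference in WAT, for Gpnmb and Spp1, which varied together between rats in WAT, and for Cd68, which varied between rats with Csf1r in the liver. Capitals mark matches on either strand to GAGGAA, the core of sites of the myeloid factor PU.1 (TTCCTC on the other strand). They also mark CACGTG, 1 form of the E-box of the MITF and TFE factors, and TGANTCA, the AP-1 element.
Siglec10 (GRCr8, chr1:102953668-102953967, plus strand): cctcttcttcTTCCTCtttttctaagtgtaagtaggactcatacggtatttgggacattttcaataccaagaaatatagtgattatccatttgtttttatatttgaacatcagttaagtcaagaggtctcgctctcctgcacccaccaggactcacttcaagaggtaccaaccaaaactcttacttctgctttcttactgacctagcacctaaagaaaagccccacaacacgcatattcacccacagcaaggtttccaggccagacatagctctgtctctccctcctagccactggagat
Gpnmb (GRCr8, chr4:79340878-79341177, plus strand): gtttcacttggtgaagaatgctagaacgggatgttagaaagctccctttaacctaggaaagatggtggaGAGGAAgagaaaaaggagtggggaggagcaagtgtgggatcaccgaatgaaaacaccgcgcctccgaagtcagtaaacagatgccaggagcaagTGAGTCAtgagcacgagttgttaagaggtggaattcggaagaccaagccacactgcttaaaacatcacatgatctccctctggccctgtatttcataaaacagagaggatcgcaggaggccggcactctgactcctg
Spp1 (GRCr8, chr14:5619755-5620054, minus strand): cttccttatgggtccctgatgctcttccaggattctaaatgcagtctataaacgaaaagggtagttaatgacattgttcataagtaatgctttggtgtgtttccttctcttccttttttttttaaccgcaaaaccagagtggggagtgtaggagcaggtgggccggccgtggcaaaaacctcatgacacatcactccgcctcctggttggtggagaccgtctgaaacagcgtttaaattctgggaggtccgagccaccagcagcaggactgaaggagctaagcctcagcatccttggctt
Cd68 (GRCr8, chr10:54882392-54882691, minus strand): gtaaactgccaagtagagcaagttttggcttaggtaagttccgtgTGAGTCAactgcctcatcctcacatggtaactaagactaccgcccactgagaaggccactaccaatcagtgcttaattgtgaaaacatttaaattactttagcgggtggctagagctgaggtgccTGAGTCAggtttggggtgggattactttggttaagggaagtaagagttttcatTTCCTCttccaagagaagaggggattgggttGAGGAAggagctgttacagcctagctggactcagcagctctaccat
Siglec10 held 1 PU.1 core, 240 bases before the start. Gpnmb held 1 PU.1 core and 1 AP-1 element, and Cd68 held 2 of each. The Spp1 window held none of the 3 motifs, and neither did that of Cd163, while those of Csf1r and Itgam held 2 PU.1 cores each. No window of the 7 held CACGTG, and other forms of the MITF and TFE site were not searched. Over all 33469 windows of this length, 27.6% held GAGGAA, 6.42% CACGTG and 7.33% TGANTCA. A match is a run of letters in this window and was not tested as a binding site.

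WAT was compared first, between the L and H diets. All 7 genes whose value varied had a higher mean in the H rats, with log2 differences from 0.11 to 0.88 and a median of 0.50, where the median of all 5280 varying probe sets was 0.02 and 60.7% of them had a higher mean in the H rats. The 8th gene, Itgam, held 1 value on all 9 arrays. Siglec10 and Cd163 were the 2 genes whose H rats all lay above all L rats, which 1.63% of the varying probe sets showed. With limma, fitted on all probe sets with Benjamini-Hochberg adjustment, 0 of the 8 genes were called at an adjusted p under 0.05, and 0.0548% of all probe sets were (17, of which 1 varied). Without adjustment, 4 of the 7 varying genes had a limma p under 0.05 with higher values in the H rats, against 4.75% of the varying probe sets. Fitted on the varying probe sets alone, limma called 0 of the 5280, and the smallest adjusted p of the 7 genes was 0.332 (Siglec10). The limma values given below for WAT are from the fit on all probe sets. By rank products, the method of the study, at a false discovery rate (FDR) under 0.05, 5 genes rose, Siglec10, Spp1, Gpnmb, Cd68 and Cd163, where 0.725% of all probe sets were called higher (4.26% of those that varied). When only the varying probe sets were ranked, 1 gene of the 7 was called, Siglec10, at an FDR of 0.0433, where 0.189% of the 5280 were called higher. Because the 8 genes were chosen with earlier results of these data known, their counts beside these shares are no independent evidence.

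**Figure D1:**
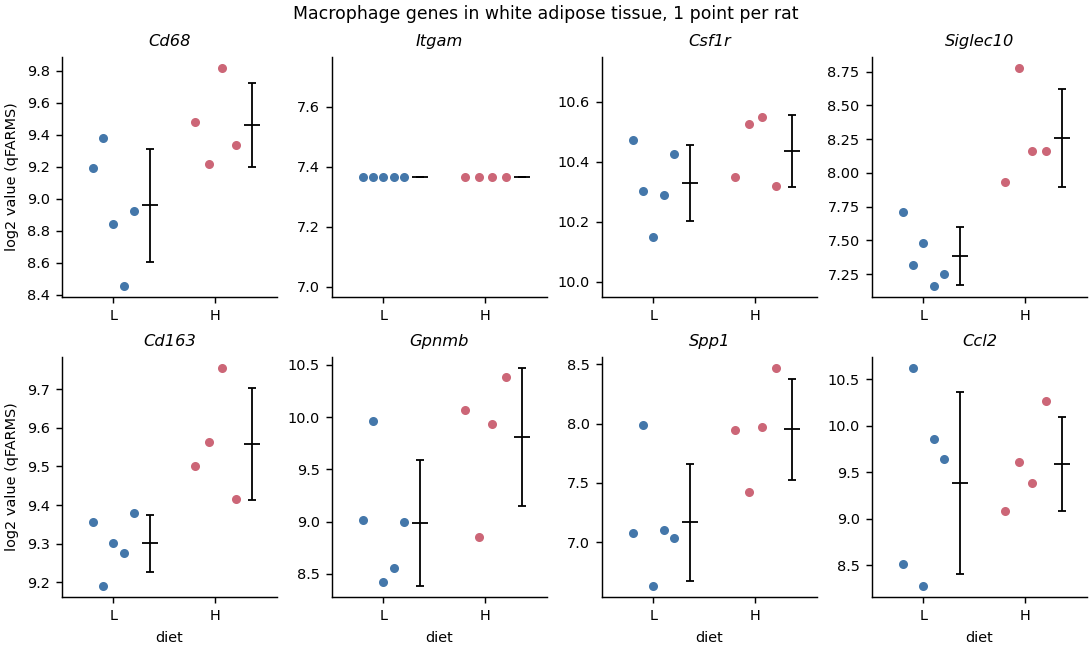
Values of the 8 genes in WAT on the log2 scale of the deposited data, in L rats (blue, n = 5) and H rats (red, n = 4), with 1 point per rat and the mean and SD beside each group. Siglec10 and Cd163 show no overlap between the diets, Ccl2 overlaps widely and Itgam holds 1 value.

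Cd68, Itgam, Csf1r and Siglec10 were grouped as proteins of the macrophage itself. Cd68 is a heavily glycosylated protein of the late endosome and lysosome. Its log2 value in WAT was 9.19, 9.38, 8.84, 8.46 and 8.92 in rats L1 to L5 and 9.48, 9.21, 9.82 and 9.33 in rats H12, H13, H15 and H16. The mean was 8.96 ± 0.35 (SD, n = 5) in the L rats and 9.46 ± 0.26 (SD, n = 4) in the H rats. The difference was 0.50 ± 0.21 (SE), a fold of 1.42, with a limma p of 0.0482 and an adjusted p of 0.805. The groups overlapped through L2, the highest L rat, which exceeded H13 and H16, and rat L4 had the lowest value of all 9. By rank products the FDR was 0.0188 over all probe sets and 0.407 when the varying ones alone were ranked, and the call was lost when any H rat was left out.

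Csf1r, the receptor for the growth factors Csf1 and Il34 on which macrophages depend, was 10.47, 10.30, 10.15, 10.29 and 10.43 in rats L1 to L5 and 10.35, 10.53, 10.55 and 10.32 in the H rats in the same order. The H rats H13 and H15 lay above all L rats, while H12 and H16 lay within their range. The difference was 0.11 ± 0.08 (SE, limma, adjusted p = 0.851). Itgam, the CD11b chain of a complement receptor of phagocytes, was 7.37 on every WAT array, so that no difference could be measured. Its partner chain Itgb2, which belongs to the genes given further on, did vary.

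Siglec10 is a lectin of the cell surface that binds sialic acid and, in human cells, passes inhibitory signals, with Cd24 among its ligands. It had the largest difference of the 8 genes in WAT. The values were 7.71, 7.31, 7.48, 7.16 and 7.25 in rats L1 to L5 and 7.94, 8.78, 8.16 and 8.16 in rats H12, H13, H15 and H16. Every H rat lay above every L rat, H13 being the highest and L1 and H12 the nearest pair. The means were 7.38 ± 0.22 (SD, n = 5) and 8.26 ± 0.36 (SD, n = 4), and the difference was 0.88 ± 0.19 (SE), a fold of 1.84, with a limma p of 0.00238 and an adjusted p of 0.623. Without H13 the difference was 0.70, the smallest over the 9 rats left out in turn, and without H12 it was 0.98, the largest. Siglec10 was the 1 gene called by rank products in every one of these 9 runs.

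Cd163, the scavenger receptor of haptoglobin and haemoglobin complexes on resident and repair-type macrophages, was 9.36, 9.19, 9.30, 9.28 and 9.38 in rats L1 to L5 and 9.50, 9.56, 9.75 and 9.42 in the H rats. The groups did not overlap, although L5 and H16 were only slightly apart. The difference was 0.26 ± 0.07 (SE), a fold of 1.20, with a limma p of 0.00919 and an adjusted p of 0.623. By rank products the FDR was 0.0491 over all probe sets and 0.850 among the varying ones, and the call was lost when L2, L3, L4 or any H rat was left out.

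Gpnmb and Spp1 are known from lipid-laden macrophages, Gpnmb as a membrane glycoprotein of lysosome-rich cells and Spp1, osteopontin, as a secreted phosphoprotein that binds integrins and Cd44. Both are among the genes that the study listed for WAT from these same arrays, so that their direction is no independent evidence. Gpnmb was 9.02, 9.96, 8.42, 8.55 and 9.00 in rats L1 to L5 and 10.06, 8.86, 9.93 and 10.38 in rats H12, H13, H15 and H16. Rat L2 lay above H13 and H15, and H13 lay below L1, L2 and L5. The difference was 0.82 ± 0.42 (SE), a fold of 1.76, with a limma p of 0.0900 and an adjusted p of 0.807. It ran from 0.63 without H16 to 1.14 without H13. The FDR of rank products was 0.00593 over all probe sets and 0.0835 among the varying ones.

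Spp1 was 7.08, 7.99, 6.63, 7.10 and 7.04 in rats L1 to L5 and 7.95, 7.43, 7.97 and 8.47 in the H rats. The same rat, L2, stood with the H rats, and the other 4 L rats lay below all of them. The difference was 0.79 ± 0.31 (SE), a fold of 1.72, with a limma p of 0.0386 and an adjusted p of 0.805, and it ran from 0.61 without H16 to 0.99 without L2. The FDR of rank products was 0.00480 over all probe sets and 0.0868 among the varying ones.

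Ccl2, the chemokine that draws monocytes bearing Ccr2 into tissue and that adipocytes, fibroblasts and endothelium also make, had the widest spread. It was 8.51, 10.62, 8.28, 9.86 and 9.64 in rats L1 to L5 and 9.09, 9.61, 9.38 and 10.27 in the H rats. All 4 H rats lay within the range of the L rats, with L2 the highest of all. The difference was 0.21 ± 0.54 (SE, limma, adjusted p = 1), and it was negative without L1, L3 or H16, down to -0.07. Rank products called Ccl2 in 1 of the 9 runs with a rat left out, that without L2 (FDR 0.0447).

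The WAT arrays differed in more than these genes. The array of H15 had the lowest mean correlation with the other WAT arrays, 0.942, where the others had 0.955 to 0.963. Without H15 the differences were 0.19 for Cd163 and 0.38 for Cd68, and rank products called 3 of the 8 genes, Gpnmb, Spp1 and Siglec10. Leaving out another H rat gave 2 genes without H12 (Spp1 and Siglec10), 3 without H13 (Gpnmb, Spp1 and Siglec10) and 1 without H16 (Siglec10). The labelled tissues were checked against markers of adipocytes, hepatocytes and brown adipocytes. Adipoq, the adipocyte hormone adiponectin, ran from 13.2 to 13.4 in WAT and 13.1 to 13.8 in BAT against 3.24 to 3.53 in the liver. Ucp1, the uncoupling protein of brown adipocytes, ran from 14.4 to 14.9 in BAT and from 2.75 to 3.31 in the liver and held 1 value, 6.46, in WAT. Alb, the serum albumin of hepatocytes, was 14.3 on the liver arrays, but it spanned 7.83 to 12.7 in WAT and 12.6 to 13.4 in BAT. Of the other hepatocyte markers, Apoa1, Cps1 and Tat held 2.29 in BAT, where Serpina1 reached 2.35 and Ttr 4.34. All of these held 1 value in WAT. Elovl3, a fatty acid elongase of brown adipocytes, held the lowest value of the BAT data, 2.29, on every BAT array.

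Marker genes of other cell types were read beside the 8 genes in WAT. None of the 9 T cell, 6 natural killer cell and 3 B cell markers on the array varied there. Of 5 neutrophil markers 2 varied, with S100a9 0.86 ± 0.88 (SE) higher in the H rats, and the mean level of the list ran from 6.70 to 6.90 in the L rats and from 6.61 to 7.89 in the H rats. S100a9 was 10.46 in H16 alone, while H12 and H13, at 6.83 and 6.85, stood within the range of the L rats, 6.35 to 7.11, and H15 below it. The 6 fibroblast and 5 varying mast cell markers all had higher means in the H rats, with medians of 0.09 and 0.25. In the mast cell marker Cpa3 and the fibroblast marker Col1a1 this came from H15 alone, at 11.20 and 12.14. The other H rats lay at 9.16 to 9.43 and at 10.33 to 10.64, below the L means of 9.53 and 10.75. Pdgfra, by contrast, was above its L mean of 10.21 in H13, H15 and H16, and Fcer1a above its L mean of 7.07 in every H rat. Of 5 endothelial markers 4 were higher, with a median of 0.13. In Kdr, the receptor for vascular endothelial growth factor, the difference was 0.28, and in Vwf, the von Willebrand factor, 0.35. Adipoq was lower in every H rat than in any L rat, by 0.13. Limma called none of the markers of other cell types in WAT. Rank products over all probe sets called S100a9, Alb, Lep (the hormone leptin) and Krt19, a keratin of mesothelial and bile duct cells, higher in the H rats, and Adipoq, the mesothelial markers Lrrn4 and Upk1b and the erythroid enzyme Alas2 lower. The difference of Alb was 0.56 ± 1.16 (SE), with 12.7 in H15 and 7.83 in H13. None of these markers was called when the varying probe sets alone were ranked, and their part in the differences of the 8 genes was not tested.

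Further macrophage genes were taken from lists. Of 20 other macrophage markers on the array 17 varied in WAT, and 15 of these had a higher mean and 2 a lower one in the H rats, with a median of 0.18. Limma called 0 of them, and rank products called 2 higher, Itgb2 and Fcgr2b, where 4.26% of the varying probe sets were. Ranked among the varying probe sets alone, no gene of this list or of the next 3 was called in WAT, and the share called higher there was 0.189%. Itgb2, the beta chain that pairs with Itgam, was 8.74, 8.78, 8.39, 8.53 and 8.71 in rats L1 to L5 and 9.09, 9.13, 9.10 and 8.88 in the H rats. Its groups did not overlap, which 1.63% of the varying probe sets showed with higher values in the H rats. The difference was 0.42 ± 0.10 (SE), with a limma p of 0.00336 and an adjusted p of 0.623. Fcgr2b, the inhibitory Fc receptor, differed by 0.76 ± 0.35 (SE), Cybb, the membrane subunit of the phagocyte oxidase, by 0.34 ± 0.18 (SE), and Adgre1, an adhesion receptor of macrophages, by 0.26 ± 0.13 (SE).

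Genes of resident and alternatively activated macrophages gave a similar count. Of 11 that varied, 10 had a higher mean in the H rats, with a median of 0.19, limma called 0 and rank products 3, Mertk, Pltp and Lyve1 (against the same 4.26% of the varying probe sets). Mertk, a receptor for the uptake of dying cells, differed by 0.42 ± 0.10 (SE, limma, adjusted p = 0.623), and Lyve1, a hyaluronan receptor of lymphatic vessels and of some macrophages, by 0.67 ± 0.40 (SE). Pltp, the phospholipid transfer protein, was higher by 0.30, and every H rat lay above every L rat, as in 1.63% of the varying probe sets. Cd5l, a protein secreted by tissue macrophages, differed by 0.08.

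Among 19 varying genes of the lysosome and of lipid handling, 16 had a higher mean in the H rats, with a median of 0.07, and neither limma nor rank products called any. Ctsl, the protease cathepsin L, was higher by 0.18 ± 0.04 (SE, limma, adjusted p = 0.622). Every H rat lay above every L rat in Ctsl, as in 1.63% of the varying probe sets. Tfec, a transcription factor of the MITF family, differed by 0.23, Hexa, a lysosomal hexosaminidase, by 0.13 and Trem2, a lipid receptor of macrophages, by 0.01.

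Ligands, receptors and partners of the 8 genes formed the next list. Of 19 on the array 10 varied, and all 10 had a higher mean in the H rats, with a median of 0.10. Itgb2 was the 1 gene of this list called by rank products, and limma called 0. Ackr1, which binds Ccl2 on venular endothelium without signalling, differed by 0.29 ± 0.22 (SE) and C3, the complement component whose fragment the receptor of Itgam and Itgb2 binds, by 0.28 ± 0.21 (SE). Ptpn11, a phosphatase recruited by inhibitory receptors, differed by 0.03.

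Of 16 chemokines and inflammatory cytokines on the array 9 held 1 value in WAT. Of the 7 that varied 2 had a higher and 5 a lower mean in the H rats, with a median of -0.11. Cxcl1, a chemokine for neutrophils, was lower in the H rats by rank products, and so was Ptgs2, the inducible cyclooxygenase, where 1.08% of all probe sets were called lower. That share counts the 25762 probe sets that hold 1 value in WAT, so that it is not the share among varying ones. Ranked among the varying probe sets alone, Cxcl1 was still called (FDR 0.0424) and Ptgs2 was not. Cxcl1 was 8.30, 7.98, 7.04, 7.46 and 7.03 in rats L1 to L5 and 6.39, 6.40, 6.49 and 8.38 in the H rats. Thus 3 H rats lay below all L rats and H16 above all of them, and the difference was -0.65 ± 0.51 (SE, limma, adjusted p = 0.851). Ptgs2 differed by -0.42 ± 0.44 (SE), Cxcl10 by -0.11 and Ccl5, a chemokine for T cells and monocytes, by 0.25.

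**Figure D2:**
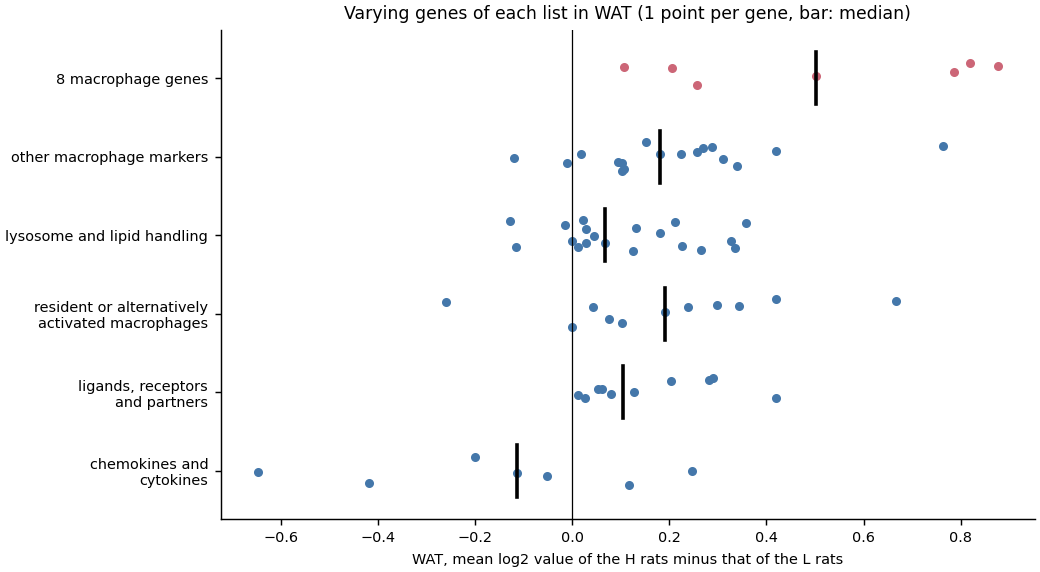
Difference of the mean log2 value between H and L rats in WAT for the varying genes of each list, with 1 point per gene and a bar at the median. The bar of the 7 varying macrophage genes stands at 0.50, those of the 3 further macrophage lists and of the ligands and partners between 0.07 and 0.19, and that of the chemokines and cytokines at -0.11.

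Within a diet the 7 varying genes did not all move together from rat to rat. After the mean of each diet had been taken off, 21 pairs of genes were correlated over the 9 rats in WAT, each with an exact permutation of the rats within the diets. Gpnmb and Spp1 gave the highest Pearson r, 0.933 (exact permutation p = 0.00382, 0.0802 after Benjamini-Hochberg adjustment over the 21 pairs), and a Spearman rho of 0.917 (exact permutation p = 0.0104, adjusted 0.219). Rats L2 and H16 were the highest of their diets in both genes and H13 and L3 the lowest. Without the 2 rats farthest from the median of Gpnmb, L2 and H13, r was 0.860.

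Spp1 and Ccl2 gave an r of 0.741 (exact permutation p = 0.0274, adjusted 0.288) and a rho of 0.633 (exact permutation p = 0.0844, adjusted 0.487), and r fell to 0.270 without L2 and H16, so that the relation rested on those rats. Cd163 and Csf1r gave 0.670 (exact permutation p = 0.0559, adjusted 0.391), with a rho of 0.733 (exact permutation p = 0.0438, adjusted 0.459) and an r of 0.549 without H15 and H16. Cd163 was negatively related to Gpnmb (r = -0.352), Spp1 (r = -0.493) and Ccl2 (r = -0.460), and Siglec10 to Gpnmb (r = -0.524), Spp1 (r = -0.458) and Ccl2 (r = -0.300). None of the 21 pairs passed the adjustment.

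**Figure D3:**
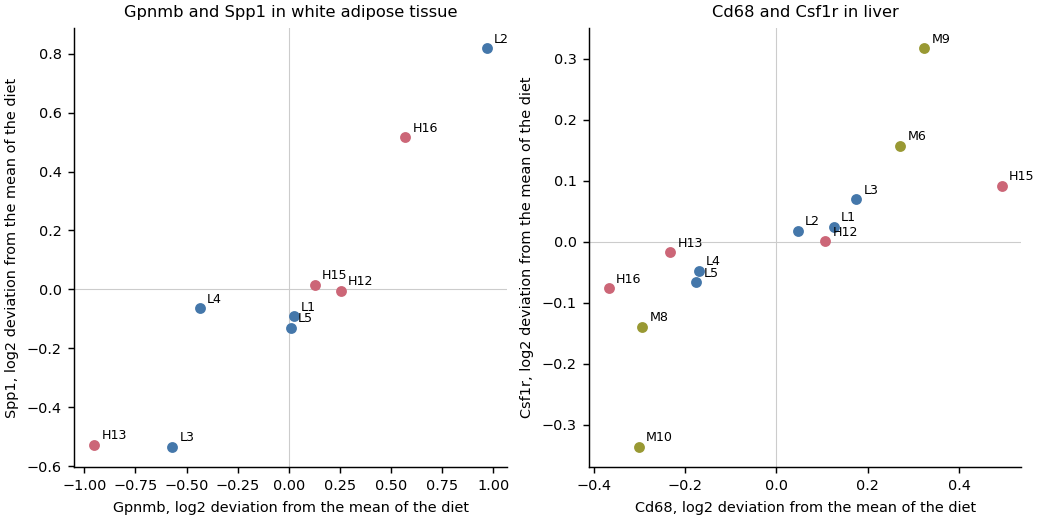
Deviation of each rat from the mean of its diet on the log2 scale, for Gpnmb and Spp1 in WAT (left, 9 rats) and for Cd68 and Csf1r in the liver (right, 13 rats), with L rats in blue, M rats in olive and H rats in red. Pearson r was 0.933 on the left, where L2 and H16 are the high points, and 0.789 on the right.

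The patterns most like the varying macrophage genes in WAT were sought among the 4109 varying probe sets with 1 gene symbol. The mean r with the 7 genes over the 9 rats, within diets, was 0.469 for Nfkbiz, 0.460 for Hexa, 0.459 for Nr4a1, 0.457 for Tent5a and 0.446 for Bmp2. With single genes r ran from -0.147 to 0.780 for Nfkbiz and from 0.031 to 0.677 for Hexa. These values are a description over arrays that share their processing.

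BAT gave fewer genes to measure. Spp1 and Itgam held 1 value, 2.29, on all 9 arrays, which is the lowest value in the BAT data, and Siglec10 stood at most 0.050 and Cd163 at most 0.163 above it on any array. All 6 varying genes had a higher mean in the H rats, with a median of 0.25, where the median of the 20672 varying probe sets was 0.0023 and 53.6% had a higher mean. Limma called 0 of the 8 genes and 0% of all probe sets, and 0 of the 6 varying genes had an unadjusted limma p under 0.05, as 4% of the varying probe sets had with higher values in the H rats. Fitted on the varying probe sets alone, limma gave Cd68 a p of 0.0474 (adjusted 0.678). Rank products called 1 higher, Cd68, where 0.68% of all probe sets were called higher, and 0.687% when the varying ones alone were ranked. No gene was without overlap between the diets, which 1.26% of the varying probe sets showed with higher values in the H rats.

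Cd68 in BAT was 5.20, 5.23, 5.57, 4.44 and 4.98 in rats L1 to L5 and 5.96, 5.26, 6.55 and 5.51 in rats H12, H13, H15 and H16. H12 and H15 lay above all L rats, H13 and H16 within their range, and L4 was the lowest, as in WAT. The difference was 0.74 ± 0.32 (SE), a fold of 1.67, with a limma p of 0.0527 and an adjusted p of 0.970. The FDR of rank products was 0.0245, and 0.0461 among the varying probe sets, and the call was lost without L4, H12, H13 or H15.

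Gpnmb held 3.33 in all 5 L rats of BAT and in H15 and H16, and was 4.97 in H12 and 4.24 in H13. The difference of 0.64 ± 0.34 (SE, limma, adjusted p = 0.970) therefore came from 2 rats, and without H12 it was 0.30. Csf1r was 5.33, 5.48, 5.22, 5.33 and 5.36 in rats L1 to L5 and 6.33, 5.51, 5.40 and 5.33 in the H rats. H12 stood far above all others, and the difference of 0.30 ± 0.20 (SE) was 0.07 without it. Ccl2 was 3.54, 5.30, 4.53, 5.27 and 4.08 in rats L1 to L5 and 5.68, 4.49, 4.53 and 4.33 in the H rats. Again H12 was the highest, and the difference of 0.21 ± 0.46 (SE) became -0.10 without it.

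Markers of other cell types differed in BAT as well. All 5 skeletal muscle markers had higher means in the H rats, with a median of 1.60, and their mean level ran from 4.51 to 4.57 in the L rats and from 4.53 to 8.23 in the H rats. All 6 fibroblast markers were lower, with a median of -0.40, as were all 5 smooth muscle markers, with a median of -0.54. Of 5 neutrophil markers 3 varied, all higher in the H rats, with a median of 0.49. Rank products called 4 skeletal muscle, 1 neutrophil and 1 endothelial marker higher, where 0.68% of all probe sets were. They called 3 smooth muscle, 3 fibroblast and 1 adipocyte marker lower, where 1.33% of all probe sets were. With the varying probe sets ranked alone, these counts were the same except for fibroblasts, with 2. Among the other macrophage markers 15 of 20 had a higher mean in the H rats, with a median of 0.08, limma called 0 and rank products called 1 lower, Cd14, a co-receptor for bacterial lipopolysaccharide, at -0.94 ± 0.46 (SE), where 1.33% of all probe sets were called lower. Of 23 genes of the lysosome and of lipid handling 13 had a higher and 10 a lower mean, with a median of 0.0032. An unadjusted limma p under 0.05 was reached by 1 with higher and 5 with lower values in the H rats. Among all varying probe sets of BAT, 4% and 2.71% reached it in the same order. Rank products called 3 of them lower, the lectin Lgals3 at -0.84, the fatty acid binding protein Fabp5 at -0.48 and the lipid droplet protein Plin2 at -0.45. Of 10 varying genes of resident and alternatively activated macrophages 7 had a higher mean, with a median of 0.12, and rank products called 1 lower, the haem-degrading enzyme Hmox1, at -1.26. Of 7 varying chemokines and cytokines 6 had a higher mean, with a median of 0.03, and Ccl5 was called higher at 0.63. Of 14 varying ligands and partners 8 had a higher mean, with a median of 0.02, and none was called. Limma called 0 in each of these lists. With the varying probe sets ranked alone, Cd14, Lgals3 and Hmox1 were still called lower, beside the markers of other cell types. Whether the makeup of the BAT samples took part in the values of Cd68, Gpnmb and Csf1r was not tested.

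**Figure D4:**
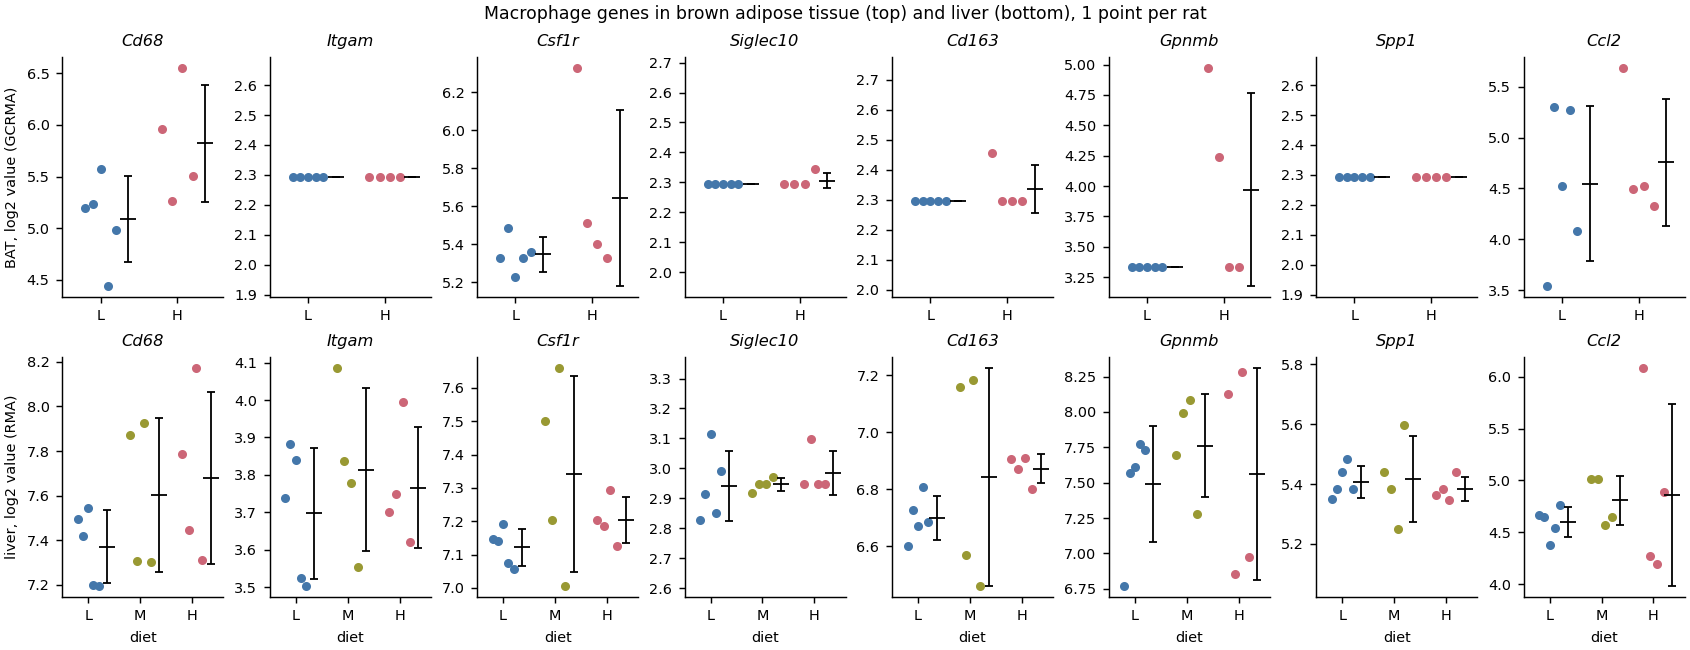
Values of the 8 genes in BAT (top, L and H rats) and in the liver (bottom, L, M and H rats) on the log2 scale of the deposited data, with 1 point per rat and the mean and SD beside each group. In BAT, Spp1 and Itgam hold 1 value and H12 is the highest point for Csf1r, Gpnmb and Ccl2, and in the liver every gene overlaps between the diets.

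In the liver all 8 genes varied. Limma called none of them in the 3 comparisons of diets, which took in 0.0354% of all probe sets between L and H, 0.00644% between L and M and 0.0129% between M and H. Rank products called 0 of the 8 genes in each, against 0.664% of all probe sets higher in H than in L, 0.142% higher in M than in L and 0.422% higher in H than in M. The number of genes with an unadjusted limma p under 0.05 was also 0 in each. In the same order 4.54%, 1.85% and 3.08% of all probe sets had one with higher values in the diet with more fat, and 4.51%, 2.18% and 2.81% with lower values. No gene was without overlap between 2 diets, which 1.6%, 0.493% and 1.52% of the probe sets showed with higher and 1.46%, 0.525% and 1.42% with lower values in the diet with more fat. Between L and H, 7 genes had a higher mean in the H rats and Spp1 a lower one, with a median of 0.08 against -0.00064 over all probe sets, of which 49.7% had a higher mean in the H rats. Between L and M all 8 had a higher mean in the M rats, with a median of 0.18, against 49.4% of all probe sets. Between M and H 4 were higher in the H rats and 4 lower, against 50.1% of all probe sets higher.

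Cd68 in the liver was 7.50, 7.42, 7.54, 7.20 and 7.20 in rats L1 to L5, 7.87, 7.31, 7.93 and 7.30 in rats M6, M8, M9 and M10 and 7.79, 7.45, 8.17 and 7.31 in rats H12, H13, H15 and H16. In the M and H groups 2 rats each lay above all L rats and the other 2 within their range. The difference between L and H was 0.31 ± 0.18 (SE, limma, adjusted p = 0.659), or 0.14 without H15, and that between L and M was 0.23 ± 0.18 (SE), or 0.12 without M9. Csf1r was 7.15, 7.14, 7.19, 7.07 and 7.06 in the L rats, 7.50, 7.20, 7.66 and 7.01 in the M rats and 7.20, 7.19, 7.30 and 7.13 in the H rats. M6 and M9 were the highest and M10 the lowest of all, and the difference between L and M was 0.22 ± 0.10 (SE, limma, adjusted p = 1). It was 0.11 without M9 and 0.33 without M10.

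Cd163 followed the same M rats, at 7.16 in M6 and 7.19 in M9 against 6.57 in M8 and 6.46 in M10. It was 6.60, 6.73, 6.67, 6.81 and 6.68 in the L rats and 6.91, 6.87, 6.91 and 6.80 in the H rats. The H rats lay close together and above the L rats, except that H16 was just below L4, and the difference was 0.17 ± 0.13 (SE, limma, adjusted p = 0.755). Itgam ranged from 3.50 to 3.88 in the L rats, from 3.55 to 4.09 in the M rats and from 3.62 to 3.99 in the H rats. Siglec10 ranged from 2.83 to 3.12 in the L rats and from 2.95 to 3.10 in the H rats, a difference of 0.04 ± 0.06 (SE).

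Gpnmb in the liver was 6.77, 7.57, 7.61, 7.77 and 7.73 in rats L1 to L5, 7.70, 7.99, 8.09 and 7.28 in the M rats and 8.13, 6.85, 8.28 and 6.98 in the H rats. The H rats fell into H12 and H15, above all L rats, and H13 and H16, near L1, the lowest. The difference between L and H was 0.07 ± 0.31 (SE, limma, adjusted p = 0.971). Spp1 ranged from 5.35 to 5.48 in the L rats, from 5.25 to 5.60 in the M rats and from 5.35 to 5.44 in the H rats, with a difference of -0.02 ± 0.06 (SE) between L and H. Ccl2 was 4.67, 4.65, 4.38, 4.54 and 4.76 in the L rats, 5.01, 5.01, 4.57 and 4.64 in the M rats and 6.09, 4.27, 4.19 and 4.89 in the H rats. H12 was the highest of all, as in BAT, while H13 and H15 were the lowest, and the difference of 0.26 ± 0.29 (SE) between L and H was -0.15 without H12.

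From rat to rat within a diet, Cd68 and Csf1r varied together in the liver. Of the 28 pairs of genes over the 13 rats, this was the 1 pair that passed the adjustment. Pearson r was 0.789 and Spearman rho 0.945, each with an exact permutation p of 1.447e-05, the smallest that 69120 permutations within the diets can give, and 0.000405 after Benjamini-Hochberg adjustment. Without H15 and H16, the rats farthest from the median of Cd68, r was 0.867. In WAT the same pair gave an r of 0.334 over 9 rats, and whether the 2 tissues differed was not tested. Cd163 and Csf1r gave 0.890 in the liver (permutation p = 0.0640, adjusted 0.406), with a rho of 0.703 (permutation p = 0.130, adjusted 0.519), and 0.732 without M9 and M10. Cd68 and Itgam gave 0.713 (permutation p = 0.0103, adjusted 0.144), with a rho of 0.648 (permutation p = 0.0283, adjusted 0.261) and 0.613 without H15 and H16.

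Genes that varied gave 15 relations between the tissues of a rat. Cd163 and Siglec10, near the lowest value in BAT, were left out there. Cd68 was compared in every pair of tissues. Within diets its values in BAT and liver gave a Pearson r of 0.893 over the 9 rats (exact permutation p = 0.00417, adjusted 0.0625) and a Spearman rho of 0.817 (exact permutation p = 0.0201, adjusted 0.211), with 0.958 without L4 and H13. WAT and BAT gave 0.738 (exact permutation p = 0.0292, adjusted 0.203), with a rho of 0.783 (exact permutation p = 0.0281, adjusted 0.211) and 0.716 without L2 and L4. WAT and liver gave 0.644 (exact permutation p = 0.0406, adjusted 0.203), with a rho of 0.583 (exact permutation p = 0.120, adjusted 0.599) and 0.784 without L2 and L4. The medians over all varying probe sets were 0.061 for BAT and liver, 0.159 for WAT and BAT and 0.175 for WAT and liver. For the other genes r between tissues ran from -0.195 to 0.444. The relations of Gpnmb with BAT, -0.195 among them, rest on the H rats alone. In BAT all 5 L rats held the same Gpnmb value, 3.33, as did H15 and H16. None of the 15 relations passed the adjustment.

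The 3 tissues were summarised by different methods, so that sizes are not on 1 scale between them. With that limit, limma tested whether the diet difference of a gene differed between tissues, with the arrays of 1 rat taken as independent. Siglec10 had the largest, with 0.86 ± 0.19 (SE) for WAT minus BAT (limma, adjusted p = 0.167) and 0.83 ± 0.19 (SE) for WAT minus liver (limma, adjusted p = 0.0928). With the rat as a block, Siglec10 had an adjusted limma p of 0.673 against BAT and 0.213 against the liver. In BAT it lay at most 0.050 above the lowest value of the data, so that the contrast with BAT sets a measured gene against one near that limit. In the liver it was low as well, with 13.6% of probe sets at or below its mean level and the same value, 2.95, on 5 of the 13 arrays. For Spp1 the limma interaction was 0.79 ± 0.31 (SE, adjusted p = 0.808) against BAT, where Spp1 held 1 value, and 0.81 ± 0.29 (SE, adjusted p = 0.324) against the liver. Cd68 gave -0.24 ± 0.39 (SE) against BAT and 0.19 ± 0.26 (SE) against the liver. None of the 8 genes was called in either comparison, where 0.0419% and 0.177% of all probe sets were, so that a difference between tissues was not shown for any of them.

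**Figure D5:**
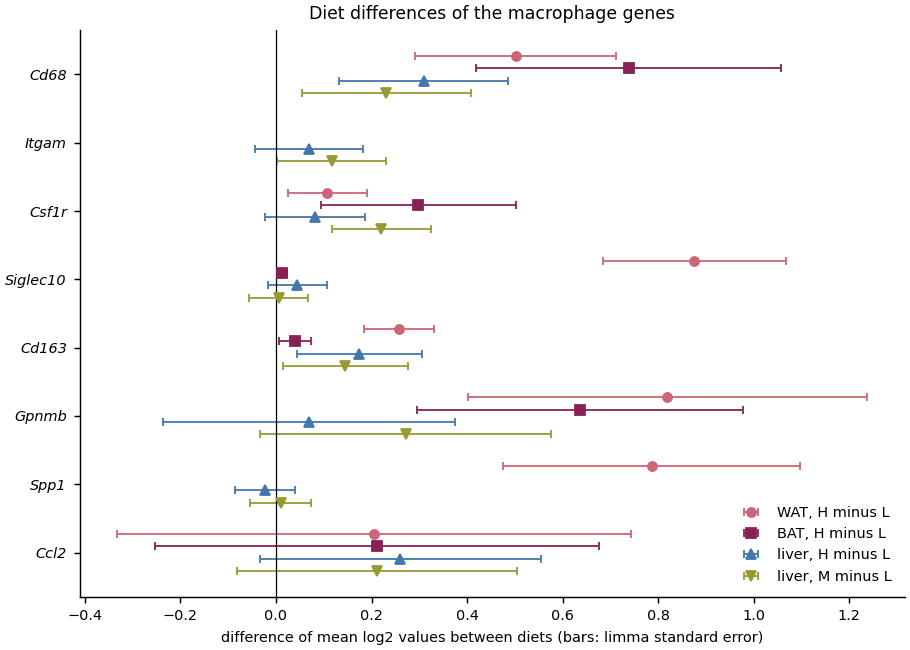
Differences of the mean log2 value between diets for each gene, with bars of 1 limma SE, in WAT, BAT and liver (H minus L) and in the liver (M minus L). Siglec10, Gpnmb and Spp1 have their largest difference in WAT, 0.88, 0.82 and 0.79, Cd68 is above 0 in every tissue, and genes that held 1 value in a tissue have no point there.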

How the data were processed

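RNA of 31 samples was hybridised to Affymetrix rat genome arrays. The authors deposited log2 values that they had computed separately for each tissue. Liver arrays went through RMA, BAT arrays through GCRMA and WAT arrays through qFARMS, a factor analysis with quantile normalization. These log2 values were used as deposited, without the 57 control probe sets. In WAT 25762 of 31042 probe sets hold 1 value to within 1e-06, so that differences there cannot be seen, and in BAT 10370 do. Array medians ran from 7.17 to 7.18 in WAT, from 2.43 to 2.51 in BAT and from 4.67 to 4.70 in the liver. Arrays carry no read depth, so that the number of arrays limits the precision. A total of 20826 probe sets carry 1 gene symbol.

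Limma 3.58.1 in R 4.3.3 was fitted to all probe sets of a tissue, with Benjamini-Hochberg adjustment and a threshold of 0.05. Rank products, the authors' method, were written in Python 3.11.15 (numpy 2.4.6, pandas 2.3.3) with 100 permutations and an FDR under 0.05. Correlations were tested by exact permutation with scipy 1.17.1. Steps were tested on simulated data. The alternatives were rank products, filters, normalizations, variance models, array weights, averaging a gene over its probe sets, an unadjusted p under 0.01, the compared diets alone and each rat left out. Rank products without each rat and on varying probe sets were added after the data were seen.

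The 8 genes and all lists were chosen with earlier results of these data known. All 8 genes are named, with up to 4 genes of the smallest limma p per list in WAT, up to 3 markers of another cell type where needed and up to 5 genes of most alike pattern. S100a9, the hepatocyte markers and Ucp1 serve as marker values.

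WAT, BAT and liver came from the same rats. Over the varying probe sets, deviations of 1 rat from the means of its diet correlated between WAT and BAT with r from 0.125 to 0.484 and between WAT and liver with r from 0.167 to 0.351, and every rat correlated best with itself.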

Additional observations from a re-analysis of the deposited data

Results flagged for a closer look

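A sample far from the others of its group was found in 6 of the 48 groups of 4 or 5 rats tested. The rule was the gap to the nearest rat over the range of the group, by which chance flags about 1 in 20 groups of untied, normally spread values. That rate does not hold for tied values. For Cd163 and Siglec10 in BAT and Siglec10 in the liver, the other rats of the flagged group shared 1 value, so that any departure was flagged. In BAT, rat H12 stood at 2.4558 for Cd163, where the other H rats had 2.2969, and at 5.6833 for Ccl2, where the next H rat had 4.5273. Siglec10 in BAT was 2.2934 in L2 against 2.2933 in the other L rats and 2.3433 in H16 against 2.2933 in the other H rats, all at the lowest values of the data. In the liver Gpnmb was 6.7710 in L1, where the next L rat had 7.5698, and Siglec10 was 3.0964 in H13, where the next H rat had 2.9476. No flag fell on a WAT group.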

How the results depend on the processing

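Limma called 0 of the 8 genes in each of the 7 comparisons, and this count stayed at 0 to 0 when each rat was left out and under every other alternative run for it, with 3 exceptions. In WAT it was 5 by rank products and 2 at an unadjusted limma p under 0.01 (Siglec10 and Cd163), and in BAT it was 1 by rank products. The unadjusted p was an alternative for the 5 diet comparisons within a tissue and not for the 2 between tissues, in both of which Siglec10 would pass it (limma p of 0.000451 against BAT and 0.000454 against the liver). The rank products count in WAT was 1 among varying probe sets and ran from 1 to 5 when each rat was left out, and that in BAT ran from 0 to 1. With array weights and the trended fit, only varying probe sets of WAT and BAT could be fitted.

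With the rat as a replicate block, which pairs the tissues of 1 animal, the interaction of Siglec10 had an adjusted limma p of 0.673 against BAT and 0.213 against the liver, and no call changed among the 8 genes. Over all probe sets the block moved the calls from 13 to 0 against BAT and from 55 to 4 against the liver.

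The sign of several small differences turned. Setting the array medians equal gave -0.0040 for Siglec10 in BAT and 0.0096 for Ccl2 in WAT minus BAT. When each rat was left out, the L vs H difference ran from -0.0708 to 0.516 for Ccl2 in WAT. In BAT it ran from -0.10 to 0.40 for Ccl2 and from -2.5e-05 to 0.017 for Siglec10. In the liver it ran from -0.17 to 0.31 for Gpnmb, from -0.15 to 0.48 for Ccl2 and from -0.0075 to 0.12 for Itgam. The L vs M difference ran from -0.0501 to 0.0655 for Spp1 and from -0.0219 to 0.0498 for Siglec10. WAT minus BAT ran from -0.38 to 0.47 for Ccl2, from -0.31 to 0.0668 for Csf1r and from -0.22 to 0.59 for Gpnmb. WAT minus liver ran from -0.29 to 0.52 for Ccl2, from -0.0367 to 0.0669 for Csf1r and from -0.12 to 0.0075 for Itgam. None of these differences passed the threshold in any of these settings, apart from Ccl2 in WAT by rank products without L2, and the cause was not tested.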
